A study of Mus musculus with 6 samples.

Results

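The heat shock and unfolded protein response genes are 41 genes chosen by symbol: 18 chaperones, co-chaperones and regulators of the cytosol, 3 mitochondrial chaperones, 13 genes of protein folding in the endoplasmic reticulum (ER) and 7 stress sensors and their transcription factors. The symbols were named by role and the rule uses no measured value, though the genes were chosen with earlier results of these data known. All 41 were found among the 53379 genes of the count tables, and 38 passed the filter on low counts. They were followed in regulatory T cells (Tregs), the Foxp3-expressing T cells that restrain immune responses, of 3-month-old C57BL/6 mice. The KO group (3 libraries, titled bKO) has the genotype Foxp3YFP-CrexJunbFlox/Flox, in which Cre made from the Foxp3 locus acts on floxed Junb. Junb encodes JunB, one of the proteins that pair up as AP-1. The WT group (3 libraries) has the genotype Foxp3YFP-CrexJunb+/+, so both groups carry the YFP-Cre allele. Cre acts where Foxp3 is on, and the labels give neither the organ of origin nor whether each library came from a separate animal. The p-values therefore rest on a spread between libraries that may be partly technical.

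Cells answer unfolded protein in the cytosol through heat shock factor HSF1, which binds heat shock elements before the genes of HSP70, HSP90 and their co-chaperones. Unfolded protein in the ER is read by the membrane sensors IRE1 (Ern1), PERK (Eif2ak3) and ATF6, which act through the transcription factors XBP1, ATF4 and CHOP (Ddit3) on ER chaperones, folding enzymes and ER-associated degradation. The sensors work largely by Xbp1 splicing, protein cleavage and translation, none of which a count per gene measures. Plasma cells, which secrete antibody, are known for high Xbp1 and for an abundance of ER chaperones.

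The libraries held between 33784183 and 41231173 counts, of which these 41 genes took 0.551, 0.657 and 0.476% in KO replicates 1 to 3 and 0.670, 0.676 and 0.567% in WT replicates 1 to 3. Values are CPM (read counts scaled to a common total) on normalized library sizes, and a difference is KO minus WT on the log2 scale. Junb had 57.1, 57.3 and 49.6 CPM in KO and 87.1, 77.5 and 89.5 CPM in WT, with every KO library below every WT library. Its difference was -0.63 (SE 0.13, 95% interval -0.93 to -0.33), with an edgeR adjusted p of 0.9999 and a DESeq2 adjusted p of 0.00417. Foxp3 was present in all libraries, at 28.1, 29.4 and 39.0 CPM in KO and 39.5, 32.7 and 36.7 CPM in WT, and of 12 Treg markers it differed least. All 12 had the lower mean in KO (median -0.47), and 0 were called by edgeR, as over all genes. Of the 12, 2 had every KO library below every WT library, against 4.07% of all genes. The sums were 1435, 2446 and 3290 CPM in KO and 3406, 3012 and 3453 CPM in WT. KO replicate 1 was the lowest library there. Of 9 general T cell markers 8 had the lower mean in KO, with a median of -0.17. Xist had 290.1, 253 and 2.13 CPM in KO and 291, 252 and 333 CPM in WT, so KO replicate 3 stood apart from the other libraries. The deposited tables carry 1 of 2 numbers in their names, which splits the libraries, with KO replicate 2 and WT replicates 1 and 2 in group A and KO replicates 1 and 3 and WT replicate 3 in group B. The labels do not say what the number stands for. B cell markers summed to 5280, 6479 and 2970 CPM in KO and 2409, 8765 and 1953 CPM in WT, and plasma cell markers to 6210, 9351 and 3207 CPM in KO and 4102, 10890 and 2266 CPM in WT, so both were present in every library.

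None of the 38 tested genes was called between KO and WT by edgeR's quasi-likelihood test (adjusted p 0.9999 for each), by DESeq2 (adjusted p 0.987 to 1) or by limma-voom (adjusted p 0.9999). Over all 20475 genes edgeR called 0% at an adjusted p under 0.05, and 2.88% had an unadjusted p under 0.05, against 0 of these 38. DESeq2 called 63 genes, 0.272% of the 23198 with an adjusted p, and 1208 of its 32929 genes had an unadjusted p under 0.05. Limma-voom called 0 genes, with 740 unadjusted. By direction alone, 13 of 15 cytosolic and 11 of 13 ER genes had the lower mean in KO, with median differences of -0.18 and -0.17. All 7 sensors had the higher mean in KO, with a median of 0.21. Among the 3 mitochondrial genes 2 were higher, with a median of 0.087. Over all genes 10421 were higher and 10054 lower, with a median of 0.0055. The spread of a set's mean log2 level between libraries of a genotype was an SD of 0.19 for the cytosolic, 0.20 for the mitochondrial, 0.21 for the ER and 0.67 for the sensor genes, as large as each median or larger. The sensor spread includes Trib3, which was near the floor in KO replicate 3 (3 counts) and WT replicate 3 (0 counts). Treg and T cell markers had lower means in KO as well, and their part in the lower cytosolic and ER medians was not tested.

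**Figure D1:**
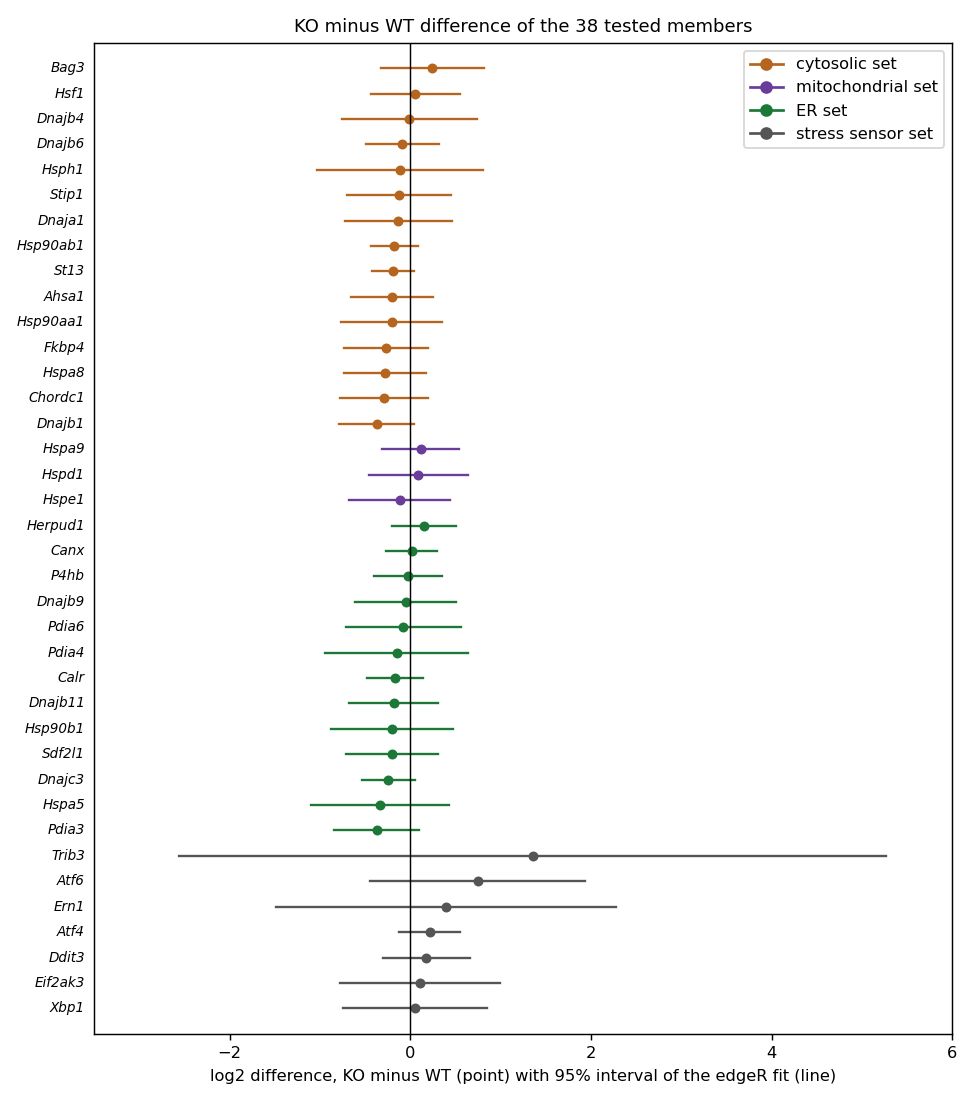
Difference of each of the 38 tested genes on the log2 scale, KO minus WT (points), with the 95% interval of the edgeR fit (lines), coloured by set. Every interval includes 0, most cytosolic and ER points lie below 0, and all 7 sensor points lie above it, with the widest interval for Trib3 (-2.56 to 5.27).

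The cytosolic HSP70 and HSP90 chaperones were led by constitutive forms. Per kilobase of exon, Hsp90ab1, the constitutive HSP90, stood at 315 CPM and Hspa8, the constitutive HSP70 that binds exposed hydrophobic stretches of client proteins, at 298 CPM, averaged over the 6 libraries. Hsp90aa1, the inducible HSP90, stood at 56.2 CPM per kilobase. Hspa8 (ENSMUSG00000015656.17, chr9:40800984-40810087, plus strand, GRCm38) had 1200, 1407 and 867 CPM in KO, against 1592, 1385 and 1235 CPM in WT. KO replicate 3 was the lowest and WT replicate 1 the highest, and KO replicate 2 lay inside the WT range. The difference was -0.28 (SE 0.19, 95% interval -0.73 to 0.18). Hsp90ab1 had 955, 903 and 806 CPM in KO, against 1041, 920.4 and 1051 CPM in WT, a difference of -0.18 (SE 0.11, 95% interval -0.44 to 0.083). Here KO replicate 1 reached above the lowest WT library. Hsp90aa1 had 244, 216 and 155 CPM in KO, against 213, 189.6 and 307 CPM in WT, a difference of -0.21 (SE 0.24, 95% interval -0.77 to 0.35). WT replicate 3 stood well above the other 5 libraries, and without it the difference was 0.024.

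The stress-inducible HSP70 genes were close to silent. Hspa1a (ENSMUSG00000091971.3, chr17:34969190-34972156, minus strand) and Hspa1b (ENSMUSG00000090877.3, chr17:34956436-34959238, minus strand) are near-identical neighbours on GRCm38 that heat shock induces strongly. Hspa1a had 0, 8 and 1 counts in KO and 7, 2 and 14 counts in WT. Hspa1b had 10, 8 and 3 counts in KO and 4, 2 and 0 counts in WT. Both fell below the filter on low counts, and so did Hspb1, a small heat shock protein, with 3, 6 and 0 counts in KO and 7, 3 and 15 counts in WT. A count of 0 allows up to 3 counts, and reads of 50 bases leave the copies hard to tell apart: 58.8% of the 50-base windows of Hspa1a also occur in Hspa1b. None of these 3 genes exceeded 15 counts in a library of either genotype.

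Heat shock elements, inverted GAA repeats that HSF1 binds, were searched as letters in RefSeq windows (GRCm38.p6) from 250 bases before to 50 after the start of each gene, on both strands. Windows were at hand for 34 of the 41 genes. The short form GAANNTTC was in 9 of 13 cytosolic, 2 of 2 mitochondrial, 0 of 13 ER and 0 of 6 sensor genes, against 9.04% of 27025 genes with a window. Its other arrangement TTCNNGAA was in 4 of 13 cytosolic, 2 of 2 mitochondrial, 0 of 13 ER and 1 of 6 sensor genes, against 9.60% of all. The longer form TTCNNGAANNTTC, which holds both, was in Hsph1, Dnajb6 and Chordc1 of the cytosolic genes and in Hspd1 and Hspe1, against 0.662% of all genes. A match describes letters only, and no binding was measured. The stretches below show 2 nearly silent copies with the short form and 2 expressed genes with the longer form, 5′ to 3′ on the strand of the gene, with the matched element in capitals. The first pair are Hspa1a (chr17:34972245-34972268, minus strand) and Hspa1b (chr17:34959327-34959350, minus strand), alike in every base shown. The others are Dnajb6 (chr5:29735844-29735872, plus strand) and Hspd1 (chr1:55088053-55088082, minus strand), where 2 longer elements overlap.
Hspa1a: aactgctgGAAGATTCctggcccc
Hspa1b: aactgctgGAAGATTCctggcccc
Dnajb6: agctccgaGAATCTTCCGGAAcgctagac
Hspd1: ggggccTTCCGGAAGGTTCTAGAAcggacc

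Among the J proteins, which hand clients to HSP70 and start its ATP cycle, Dnajb1 had the most negative difference of the cytosolic set. Dnajb1 (ENSMUSG00000005483.10, chr8:83608193-83612653, plus strand) had 48.4, 38.6 and 32.7 CPM in KO, against 49.0, 53.9 and 52.0 CPM in WT. The KO libraries all lay below the WT libraries, though KO replicate 1 and WT replicate 1 nearly met. The means were 39.9 ± 7.94 CPM in KO and 51.7 ± 2.47 CPM in WT (SD, n = 3 each), a difference of -0.37 (SE 0.17, 95% interval -0.79 to 0.040). St13, the HIP co-chaperone that steadies the ADP-bound form of HSP70, also had KO and WT libraries that did not overlap. It had 237, 221 and 213 CPM in KO, against 257, 260.4 and 249 CPM in WT, a difference of -0.19 (SE 0.10, 95% interval -0.43 to 0.044). Over all genes 4.07% had every KO library below every WT library, and 3.68% had every KO library above. Of the 38 genes here, 3 were of the first kind (Dnajb1, St13 and the ER gene Dnajc3) and 0 of the second, too few to set these genes apart from all genes.

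The other cytosolic J proteins gave smaller differences. Dnaja1 differed by -0.13 (SE 0.25), Dnajb6 by -0.086 (SE 0.17) and Dnajb4 by -0.011 (SE 0.32). Of the HSP90 co-chaperones, Ahsa1, which speeds the HSP90 ATPase, differed by -0.20 (SE 0.19). Chordc1 differed by -0.29 (SE 0.21), Fkbp4, an immunophilin of steroid receptor complexes, by -0.27 (SE 0.20), and Stip1, which bridges HSP70 and HSP90, by -0.12 (SE 0.24). All of these had the lower mean in KO, and each 95% interval included 0. Hsph1, an exchange factor of HSP70, had 44.2 ± 20.3 CPM in KO and 47.9 ± 12.6 CPM in WT (SD, n = 3 each), and KO replicate 3 alone, at 21.1 CPM, lay far below the other 5 libraries. Of the 15 tested cytosolic genes, 2 had the higher mean in KO, Bag3, a co-chaperone of selective autophagy, and Hsf1. Bag3 had 11.4 ± 0.0154 CPM in KO and 9.58 ± 1.77 CPM in WT (SD, n = 3 each), a difference of 0.24 (SE 0.24). Hsf1, the heat shock factor, had 43.9, 64.5 and 49.6 CPM in KO, against 62.1, 45.1 and 44.8 CPM in WT, and the groups overlapped almost wholly.

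**Figure D2:**
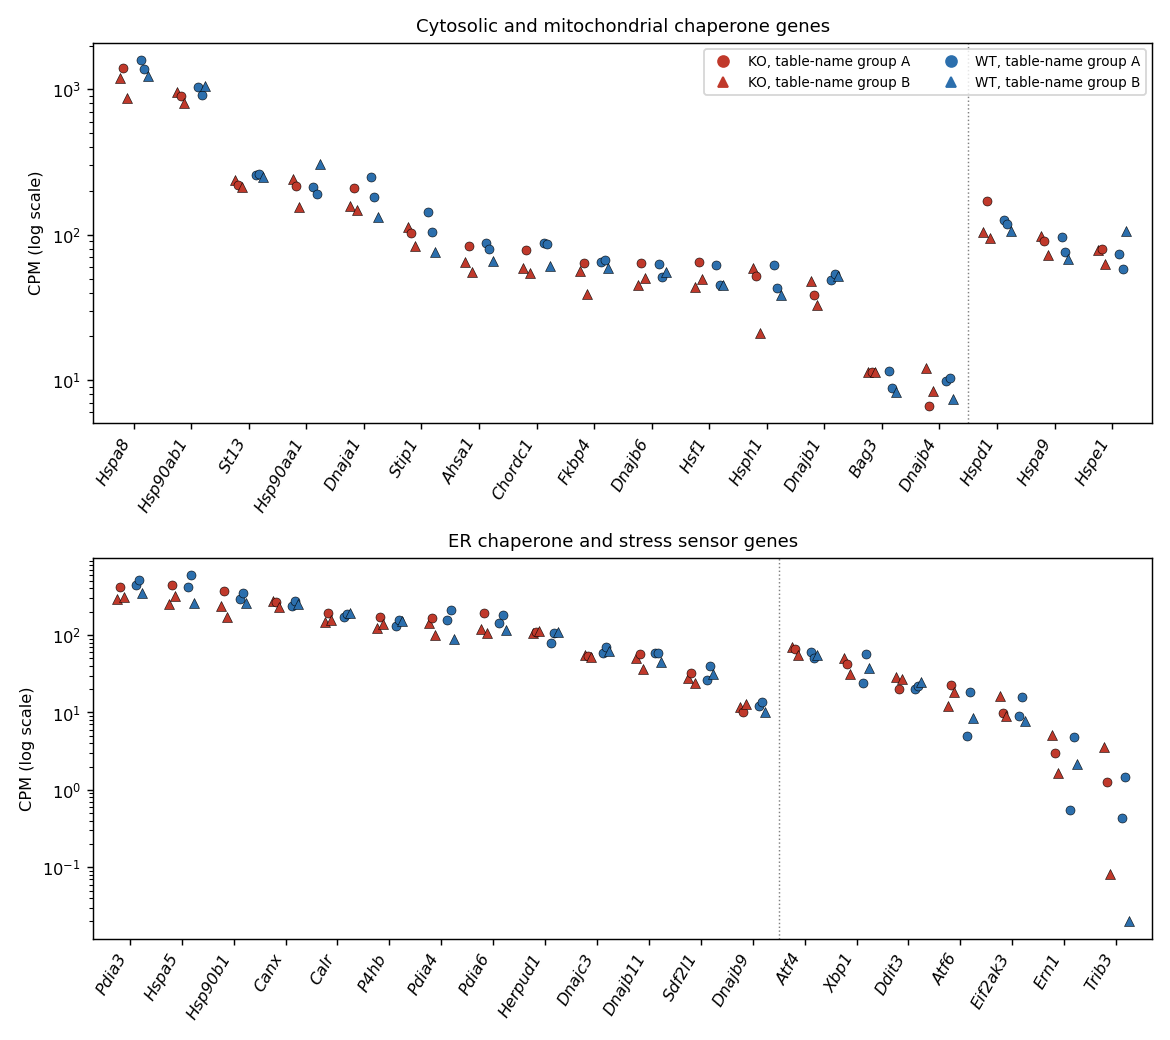
Level of each of the 38 tested genes in each library, in CPM on a log scale, with KO (red) left of WT (blue), and with circles for table-name group A and triangles for group B. Within each set genes run from high to low mean CPM, which is not corrected for length. Trib3 in WT replicate 3, with a count of 0, is drawn at 0.02 CPM. Hspa8 is highest of all, and for Hspa5 and Pdia3 the circles lie above the triangles in both colours.

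The mitochondrial chaperones did not share a direction. Hspd1 (HSP60), the folding chamber of the mitochondrial matrix, had 105, 172 and 95.8 CPM in KO, against 127, 118 and 106 CPM in WT. KO replicate 2 was high and the other 5 libraries lay close together, with a difference of 0.087 (SE 0.23) that became -0.22 without KO replicate 2. Its lid Hspe1 (HSP10) had 78.1, 79.5 and 62.7 CPM in KO, against 73.5, 58.3 and 107 CPM in WT, a difference of -0.12 (SE 0.24). Here WT replicate 3 was the highest library, and the difference was 0.15 without it. Hspa9 (mortalin), the mitochondrial HSP70, had 97.8, 91.2 and 72.4 CPM in KO, against 96.5, 76.1 and 68.5 CPM in WT, a difference of 0.12 (SE 0.18). Hspd1 and Hspe1 lie head to head and share 112 exon bases on opposite strands. The element printed for Hspd1 lies before both RefSeq starts and is also in the window of Hspe1.

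Near-identical copies touch several of these values. Of the 50-base windows of Hspa8, 39.4% also occur in another gene, and its copy Gm15459, annotated as a processed pseudogene, had almost the same level, at 1195, 1414 and 866 CPM in KO and 1583, 1395 and 1212 CPM in WT, so shared reads were counted at each place. The share was 47.5% for Hsp90aa1, 42.1% for Hspd1, 22.8% for Hspe1, 20.97% for Dnajb6 and 20.5% for Dnaja1. For the ER genes it was at most 9.75%, in Hsp90b1. Exons of Dnaja1 also overlap Smu1, and exons of Hsp90b1 overlap 1810014B01Rik, both on the opposite strand, and whether counting used strand is not stated. Levels of these genes, and ranks that rest on them, are uncertain to that degree.

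In the ER the chaperones of the lumen were abundant and 11 of 13 genes had a lower mean in KO. Pdia3 (ERp57), the disulfide isomerase that works with calnexin and calreticulin and in loading of MHC class I, stood at 124 CPM per kilobase of exon. Hspa5 (BiP), the ER HSP70 that also holds the sensors inactive, stood at 89.7, and Hsp90b1 (GRP94), the ER HSP90, at 69.8 CPM per kilobase. Pdia3 (ENSMUSG00000027248.13, chr2:121413775-121438687, plus strand) had 289.6, 419.6 and 308 CPM in KO, against 449, 517 and 349 CPM in WT. KO replicate 2 lay inside the WT range and the other KO libraries below it. The means were 339 ± 70.3 CPM in KO and 438 ± 84.3 CPM in WT (SD, n = 3 each), a difference of -0.37 (SE 0.20, 95% interval -0.84 to 0.10). Hspa5 (ENSMUSG00000026864.13, chr2:34771970-34777547, plus strand) had 253, 438 and 317 CPM in KO, against 422, 588 and 259 CPM in WT. Both groups spread widely, with WT replicates 2 and 3 as the highest and the second lowest library. The difference was -0.33 (SE 0.32, 95% interval -1.10 to 0.43), and without WT replicate 2 it was -0.019. Hsp90b1 had 238, 375 and 172 CPM in KO, against 294, 351 and 258 CPM in WT, a difference of -0.20 (SE 0.28) that was 0.025 without KO replicate 3.

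Calnexin (Canx), the membrane-bound lectin chaperone of glycoproteins, had the smallest standard error of the ER genes. It had 278, 265 and 232 CPM in KO, against 236, 277 and 253 CPM in WT, a difference of 0.016 (SE 0.12, 95% interval -0.27 to 0.30). Its soluble relative Calr had 148, 190.4 and 155 CPM in KO, against 173, 188 and 193 CPM in WT, a difference of -0.17 (SE 0.13, 95% interval -0.48 to 0.15). Calr overlapped between the groups through KO replicate 2 alone. Dnajc3 (P58IPK; ENSMUSG00000022136.8, chr14:118937976-118981697, plus strand), a J protein of BiP, had 55.1, 54.4 and 51.3 CPM in KO, against 58.7, 69.4 and 62.4 CPM in WT. The KO libraries were all below the WT libraries and within 4 CPM of each other. The means were 53.6 ± 1.995 CPM in KO and 63.5 ± 5.42 CPM in WT (SD, n = 3 each), a difference of -0.24 (SE 0.13, 95% interval -0.54 to 0.051). The remaining isomerases P4hb, Pdia4 and Pdia6 differed by -0.025 (SE 0.16), -0.15 (SE 0.33) and -0.075 (SE 0.27). The BiP partners Dnajb11, Dnajb9 and Sdf2l1 differed by -0.18 (SE 0.21), -0.049 (SE 0.24) and -0.20 (SE 0.21). Herpud1, a part of ER-associated degradation, was with Canx the exception in direction, with 109.7 ± 4.23 CPM in KO and 98.7 ± 17.0 CPM in WT (SD, n = 3 each) and a difference of 0.15 (SE 0.15).

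Some of the ER genes held a sequence element already known from ER stress genes. Matches here describe letters only and are not an independent trait of the set. The ER stress element, to which NF-Y and ATF6 or XBP1 bind, was searched as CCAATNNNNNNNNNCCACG on both strands of the same windows. It was in 6 of 13 ER genes (Hspa5, Hsp90b1, Dnajc3, Calr, Canx and Pdia6) and in 0 of 13 cytosolic, 0 of 2 mitochondrial and 0 of 6 sensor genes, against 37 of all 27025 genes, or 0.137%. Its relative ERSE-II, searched as ATTGG and CCACG with 1 base of any kind between them, was in Herpud1 and Dnajb11, against 0.0444% of all genes. The C/EBP-ATF element of ATF4 targets, searched as TGATGCAAT, was in 0 of 34, against 0.222%. Below are the stretches with the element in capitals, 5′ to 3′ on the strand of the gene, since these genes make up much of the ER set and include the abundant Hspa5 and Hsp90b1. They lie at chr2:34772020-34772048 (Hspa5, plus strand), chr10:86705633-86705661 and chr10:86705528-86705556 (Hsp90b1, minus strand) and chr14:118937822-118937850 (Dnajc3, plus strand). The others lie at chr8:84847070-84847098 (Calr, minus strand), chr11:50325795-50325823 (Canx, minus strand), chr12:17266486-17266514 (Pdia6, plus strand) and chr8:94386369-94386395 (Herpud1, plus strand, ERSE-II). In Calr and at the second place in Hsp90b1 the match is on the opposite strand, so CGTGG comes first.
Hspa5: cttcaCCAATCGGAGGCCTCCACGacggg
Hsp90b1, first: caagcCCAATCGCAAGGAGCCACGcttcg
Hsp90b1, second: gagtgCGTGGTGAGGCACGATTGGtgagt
Dnajc3: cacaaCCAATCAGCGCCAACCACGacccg
Calr: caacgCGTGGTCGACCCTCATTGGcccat
Canx: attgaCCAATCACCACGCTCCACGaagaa
Pdia6: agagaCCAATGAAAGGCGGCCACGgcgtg
Herpud1: gggcgctgATTGGGCCACGttggacac

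Genes with the ER stress element varied in their differences between the genotypes. Of the 6, Dnajc3 had libraries that did not overlap, at -0.24, while Canx, at 0.016, and Pdia6, at -0.075, were close to 0. The AP-1 site, to which JunB dimers can bind, was searched in the loose form TGANTCA. This form was in Bag3, Hspa5, Eif2ak3 and Ddit3, 4 of 34, against 8.97% of all genes. Their differences were 0.24, -0.33, 0.11 and 0.18, with both signs among them. In Eif2ak3 the middle base is T, where the usual AP-1 site has C or G.

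The sensors and their transcription factors were less abundant than the leading chaperones, and all 7 had a higher mean in KO. Per kilobase of exon, Atf4 stood at 25.3, Ddit3 at 13.8, Xbp1 at 12.5 and Ern1 at 0.351 CPM. Atf6 (ENSMUSG00000026663.6, chr1:170704674-170867771, minus strand), the sensor that is cut in the Golgi to release a transcription factor, had 12.1, 22.5 and 18.6 CPM in KO, against 4.92, 18.4 and 8.40 CPM in WT. WT replicates 1 and 3 were low, while WT replicate 2 lay inside the KO range. The difference was 0.75 (SE 0.50, 95% interval -0.44 to 1.93), with 0.40 without WT replicate 1 and 1.41 without WT replicate 2. Atf4, the transcription factor of the integrated stress response, had 69.9, 66.0 and 56.0 CPM in KO, against 60.5, 50.0 and 55.0 CPM in WT, a difference of 0.21 (SE 0.14, 95% interval -0.13 to 0.55). The groups overlapped through KO replicate 3. Ddit3 (CHOP), which ATF4 induces in lasting stress, had 28.6, 19.99 and 26.8 CPM in KO, against 20.3, 21.8 and 24.8 CPM in WT, a difference of 0.18 (SE 0.20, 95% interval -0.31 to 0.66). Its exons overlap Mars on the opposite strand over some of their length. Xbp1, whose mRNA IRE1 splices, had 50.1, 42.2 and 31.8 CPM in KO, against 23.7, 57.8 and 37.8 CPM in WT, a difference of 0.056 (SE 0.34, 95% interval -0.74 to 0.85). The WT libraries held both its lowest and its highest value, so the KO range lay inside the WT range.

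The remaining sensors were low. Eif2ak3 (PERK) had 11.7 ± 3.88 CPM in KO and 10.9 ± 4.28 CPM in WT, and Ern1 (IRE1) 3.26 ± 1.72 CPM in KO and 2.48 ± 2.13 CPM in WT (SD, n = 3 each). Trib3, a pseudokinase that ATF4 and CHOP induce, is given by library because it had the largest difference, a choice made after its values were seen. It had 135, 44 and 3 counts in KO and 15, 51 and 0 counts in WT. Each genotype held a library with at most 3 counts, and the difference was 1.35 (SE 1.65, 95% interval -2.56 to 5.27). It was 0.058 without KO replicate 1 and 2.91 without WT replicate 2.

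**Figure D3:**
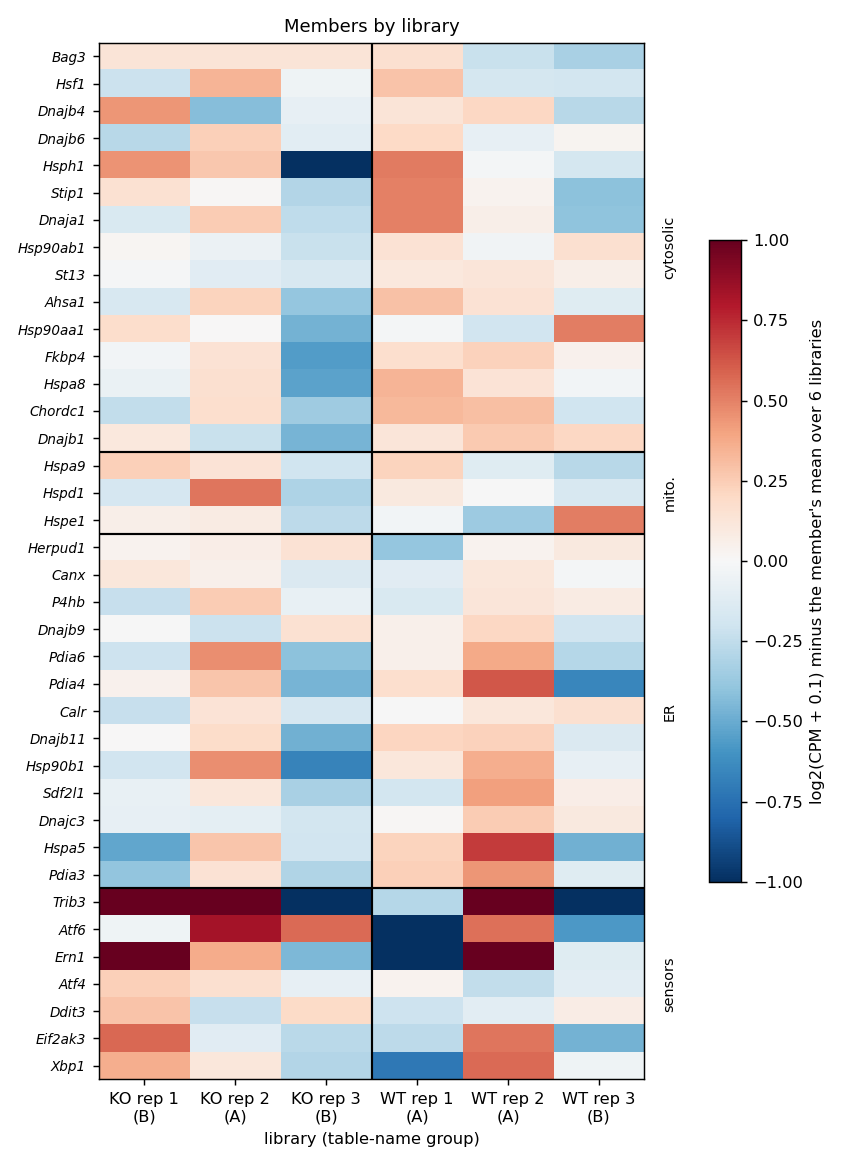
Each tested gene in each library as log2(CPM + 0.1) minus its mean over the 6 libraries, with KO libraries left of WT libraries and the table-name group (A or B) under each; colours end at -1 and 1. Most ER chaperones are above their mean (red) in KO replicate 2 and WT replicate 2 and below it (blue) in KO replicate 3, and the sensors Xbp1, Eif2ak3 and Ern1 are highest in KO replicate 1 or WT replicate 2.

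Many chaperones separated by table-name group. In 12 of the 38 genes every group A library lay above every group B library, against 8.31% of all genes. They were Hspa8, Dnaja1, Chordc1, Ahsa1 and Fkbp4 of the cytosol, Hspd1 of the mitochondria, and Hspa5, Hsp90b1, Dnajb11, Pdia3, Pdia4 and Pdia6 of the ER. Ddit3 was the only one with every group A library below, against 9.78% of all genes. With table-name group as a term beside genotype, edgeR gave 9 of the 38 an unadjusted p under 0.05 for that term, against 11.4% of all genes, and called 0 genes after adjustment over all 20475. The A minus B difference was 0.79 for Hspa5, with means of 483 CPM in A and 276 CPM in B. It was 0.77 for Pdia4, 0.64 for Pdia6, 0.60 for Hsp90b1, 0.48 for Pdia3 and 0.36 for Hspa8. The A minus B difference was -0.042 for Dnajb1, 0.015 for St13 and 0.035 for Dnajc3. Their KO and WT libraries did not overlap and both groups hold both genotypes, so these genes could not separate by table-name group.

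Group A holds more WT than KO libraries, so table-name group and genotype are partly mixed, and the part of the group in the differences was not tested. Within A, with 1 KO and 2 WT libraries, the median difference of the cytosolic genes was -0.055 and that of the ER genes 0.002. Within B, with 2 KO libraries and 1 WT library, they were -0.15 and -0.092. Over all genes the medians were 0.021 within A and -0.036 within B. The sensors had medians of 0.26 within A and 0.45 within B. With the table-name term, 5 of 15 cytosolic, 5 of 13 ER and 7 of 7 sensor genes had the higher value in KO, with medians of -0.074, -0.042 and 0.23. Dnajb1 was lower in KO within both groups (-0.41 in A and -0.39 in B). So were St13 (-0.23 and -0.15) and Dnajc3 (-0.23 and -0.23). With every KO library below every WT library, those genes had to be lower in KO within each group, so these signs add nothing. Hspa5 was -0.19 within A and 0.13 within B. Without KO replicate 3, the library with little Xist, the medians were -0.052 for cytosolic, -0.020 for ER and 0.30 for sensor genes.

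Transcripts of other cells were measured beside the ER genes and the sensors. The mean log2 CPM (1 count added to each gene) of the 13 ER genes was 6.69, 6.98 and 6.58 in KO and 6.84, 7.13 and 6.71 in WT. That of 12 plasma cell markers was 5.82, 6.64 and 4.86 in KO and 5.65, 6.56 and 4.04 in WT, all 12 detected, 7 with a higher and 5 with a lower mean in KO. KO replicate 2 and WT replicate 2 were the highest libraries in both. The lowest differed, with KO replicate 3 for the ER genes and WT replicate 3 for the plasma cell markers. Markers of pancreatic acinar cells, another secretory type, were low, with sums over 16 genes of 9.73, 67.8 and 12.3 CPM in KO and 5.61, 12.9 and 9.59 CPM in WT. KO replicate 2 stood apart there, and all 5 tested acinar genes had the higher mean in KO, with a median of 2.12. Jchain, which joins secreted antibody, had 836, 1444 and 456 CPM in KO, against 503, 1635 and 227 CPM in WT, and Mzb1, an ER protein of B and plasma cells, had 106, 139 and 52.9 CPM in KO, against 54.9, 169 and 18.2 CPM in WT. Xbp1 is itself 1 of the 12 plasma cell markers, Irf4 among them is also made by Tregs, and Ighm is in the B cell list too. The mean log2 level of the 7 sensors was 4.06, 3.65 and 2.93 in KO and 2.63, 3.86 and 2.495 in WT. That of 13 B cell markers was 5.81, 5.92 and 5.73 in KO and 4.20, 6.80 and 3.13 in WT, all 13 detected and 11 higher in KO. WT replicates 1 and 3 were the lowest libraries in both. Markers of myeloid cells followed a like order, at 5.49, 5.63 and 4.70 in KO and 4.15, 5.80 and 2.47 in WT, all 13 detected and 12 higher in KO. The sensor mean includes Trib3 with the same weight as each other sensor. Trib3 had 135, 44 and 3 counts in KO and 15, 51 and 0 counts in WT, so it lowers the sensor mean most in KO replicate 3 and WT replicate 3. Bulk counts cannot tell more cells of a type from more RNA per cell, and the part of other cells in these levels was not tested. With the plasma cell score, without Xbp1 and Derl3, as a covariate, an alternative chosen after seeing the data, the ER median was -0.25 and the sensor median 0.22, and 0 genes were called.

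**Figure D4:**
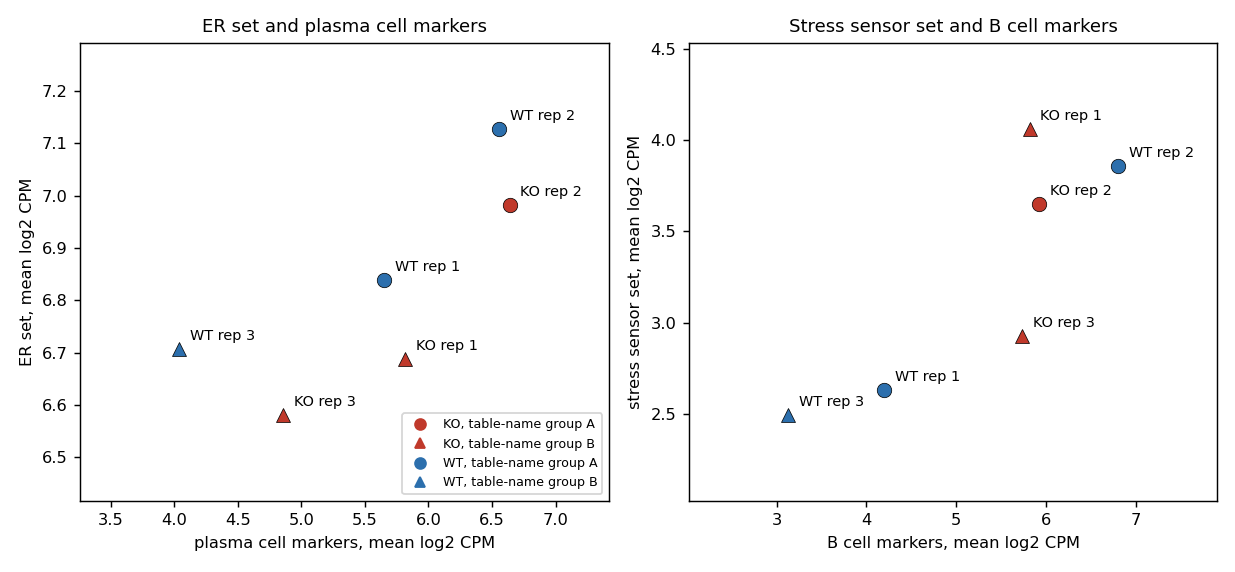
Left, mean log2 level of the 13 ER genes against that of 12 plasma cell markers. Right, mean log2 level of the 7 sensors against that of 13 B cell markers, 1 point per library (KO red, WT blue; circles for table-name group A, triangles for B), each level as the mean over genes of log2 CPM with 1 count added to each gene. KO replicate 2 and WT replicate 2 are at the top right on the left side, where KO replicate 3 is lowest and WT replicate 3 farthest left. On the right side WT replicates 1 and 3 are at the lower left. The sensor mean includes Trib3, which was near the floor in KO replicate 3 and WT replicate 3.

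No gene of the wider protein folding network was called. Of 39 tested further cytosolic chaperones and ubiquitin genes, 12 were higher and 27 lower in KO with a median of -0.074, and 0 were called by edgeR, as in each list that follows. Ubb, which encodes ubiquitin, had 6602 ± 407 CPM in KO and 6948 ± 197 CPM in WT (SD, n = 3 each). Dnajb5, a J protein, had 3.74, 2.43 and 1.64 CPM in KO, against 10.5, 4.38 and 6.79 CPM in WT, with no overlap and a difference of -1.47 (SE 0.48, 95% interval -2.60 to -0.34). In this list 3 genes were lower and 1 higher in KO without overlap, against 4.07% and 3.68% of all genes. Dnajc2, a ribosome-bound J protein, differed by -0.47 (SE 0.22). Of 14 chaperonin and prefoldin subunits, which fold actin and tubulin, 6 were higher and 8 lower, with a median of -0.040. Cct5 had 299 ± 22.5 CPM in KO and 343 ± 25.9 CPM in WT, Pfdn5 232 ± 14.3 CPM in KO and 233 ± 5.30 CPM in WT, and Cct6a differed by 0.21 (SE 0.17). Of 12 mitochondrial proteostasis genes 6 were higher and 6 lower, with a median of 0.017. Among them the proteases and chaperone helpers Yme1l1, Grpel1 and Clpx differed by 0.12 (SE 0.16), 0.20 (SE 0.13) and -0.27 (SE 0.16), and Trap1, the mitochondrial HSP90, by -0.38 (SE 0.18).

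Targets and controls of the ER response did not share a direction either. Of 42 tested further XBP1 and ATF6 targets 15 were higher and 27 lower in KO, with a median of -0.048. The signal peptidase subunit Spcs2 and the translocon gene Ssr1 were the most abundant, with differences of -0.089 (SE 0.10) and 0.066 (SE 0.16). The 2 genes of this list with the smallest edgeR p, Os9 and Sel1l, both belong to ER-associated degradation and had differences of opposite sign. The lectin Os9 had 74.6, 80.1 and 74.6 CPM in KO, against 102, 117 and 84.3 CPM in WT, a difference of -0.40 (SE 0.15). Its partner Sel1l, the adaptor of the HRD1 ligase, had 66.6, 64.4 and 63.4 CPM in KO, against 48.1, 57.7 and 41.3 CPM in WT, a difference of 0.40 (SE 0.15). The libraries of the genotypes did not overlap for either gene, and neither was called. In this list 2 genes were lower and 2 higher in KO without overlap, against 4.07% and 3.68% of all genes. Of 22 ATF4 and CHOP targets 9 were higher and 13 lower, with a median of -0.021, and Shmt2, Nars and Sars, of serine metabolism and tRNA charging, differed by 0.28 (SE 0.16), 0.28 (SE 0.18) and 0.18 (SE 0.14). Of 14 kinases and controls of the integrated stress response 5 were higher and 9 lower, with a median of -0.060. They include the Golgi proteases that cut ATF6. Mbtps1 (site-1 protease) had 86.1, 78.9 and 85.0 CPM in KO, against 102, 99.5 and 93.4 CPM in WT, a difference of -0.24 (SE 0.11). Mbtps2 (site-2 protease) had 17.3, 19.7 and 13.7 CPM in KO, against 8.07, 12.5 and 8.35 CPM in WT, a difference of 0.81 (SE 0.28). The genotypes did not overlap for either protease, with Mbtps1 lower and Mbtps2 higher in KO. Of the 14 genes of the list, 3 were lower and 1 higher in KO without overlap, against 4.07% and 3.68% of all genes. The most abundant gene of this list, Tmbim6 (BAX inhibitor 1), had 643 ± 88.1 CPM in KO and 653 ± 116 CPM in WT (SD, n = 3 each).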

How the data were processed

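RNA was measured in 6 Treg libraries. The authors deposited raw read counts per Ensembl gene, 1 table per library. The genome was mm10 and the tools were STAR 2.3, featureCounts and bcl2fastq 2.19.0.316, per the submitters' processing notes. No source used here states the annotation release or the options of featureCounts. Per the labels' protocols, Tregs were sorted by flow cytometry, amplified from low RNA input and read as single reads of 50 bases, with no molecular identifiers named, so copies of a molecule count as separate reads.

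Symbols came from GENCODE M21 on GRCm38, which matched 53274 identifiers and missed 105. Counts were fitted with edgeR 4.0.16 in R 4.3.3 (filterByExpr, TMM, robust quasi-likelihood, genotype as the only term), with Benjamini-Hochberg adjustment over all 20475 tested genes and a threshold of 0.05. The code was tested on simulated data. The common dispersion was 0.260. Alternatives were DESeq2 1.42.0, limma 3.58.1 (voom, with and without quality weights), other scaling factors and filters, a replicate block, the table-name term and leaving out each library. Copies were sought by shared 50-base windows of GENCODE transcripts, and motifs in RefSeq promoter windows of GRCm38.p6.

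The 41 genes and the lists were chosen with earlier results of these data known. Values in every library are given for the most abundant genes of a set, those with the smallest edgeR p, those whose genotypes do not overlap, and a few regulators. From the other lists come the 2 most abundant and the 2 with the smallest p. One gene that this rule names is not reported here.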

Additional observations from a re-analysis of the deposited data

How the results depend on the processing

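Across 10 alternatives and 6 fits that each left out 1 library, 0 of the 38 genes were called, and 19 of the 38 kept their direction throughout. The cytosolic, ER and sensor medians kept theirs. The number of genes called over all genes was 0 under every alternative but DESeq2, which called 63. Of 380 values from fits with all libraries, 12 had the opposite sign. With the table-name term these were Dnaja1 (0.078), Hsph1 (0.029), P4hb (0.015), Pdia4 (0.17), Pdia6 (0.11) and Stip1 (0.043). With quality weights in limma-voom they were Hsf1 (-0.046), Hspa9 (-0.005), Hspd1 (-0.009) and P4hb (0.034). With the plasma cell score as a covariate, chosen after seeing the data, they were Canx (-0.001) and Hspd1 (-0.012). The cause was not tested.

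Leaving out 1 library at a time gave the opposite sign in 36 of 228 values, in 18 genes. The ranges were -0.043 to 0.084 for Canx, -0.34 to 0.12 for Dnaja1, -0.29 to 0.17 for Dnajb4, -0.24 to 0.019 for Dnajb6, -0.16 to 0.049 for Dnajb9, -0.20 to 0.48 for Eif2ak3, -0.085 to 1.28 for Ern1, -0.12 to 0.23 for Hsf1 and -0.35 to 0.024 for Hsp90aa1. They were -0.55 to 0.025 for Hsp90b1, -0.22 to 0.24 for Hspd1, -0.30 to 0.15 for Hspe1, -0.38 to 0.22 for Hsph1, -0.17 to 0.072 for P4hb, -0.43 to 0.17 for Pdia4, -0.38 to 0.11 for Pdia6, -0.32 to 0.14 for Stip1 and -0.21 to 0.43 for Xbp1. Without a change of sign, some values moved by over 1.5 times. Hspa5 ranged from -0.59 to -0.019, Trib3 from 0.058 to 2.91, Atf6 from 0.40 to 1.41, Hspa8 from -0.44 to -0.11, Pdia3 from -0.55 to -0.24, Dnajb11 from -0.33 to -0.020, Sdf2l1 from -0.33 to -0.032, Fkbp4 from -0.42 to -0.091, Ahsa1 from -0.38 to -0.074, Chordc1 from -0.46 to -0.19, Hsp90ab1 from -0.24 to -0.12, Calr from -0.29 to -0.10, Herpud1 from 0.017 to 0.24, Hspa9 from 0.010 to 0.27, Ddit3 from 0.068 to 0.32 and Bag3 from 0.15 to 0.40. The set medians ranged from -0.25 to -0.052 for cytosolic, from -0.31 to -0.019 for ER, from 0.058 to 0.48 for sensor and from -0.18 to 0.23 for mitochondrial genes, the lowest of the last without KO replicate 2. The cytosolic median was closest to 0 without KO replicate 3, and the ER median without WT replicate 2 (-0.019) or KO replicate 3 (-0.020).

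The labels number the replicates 1 to 3 in both groups without saying that a number is shared. Same-numbered libraries deviated together with correlations of -0.090, 0.18 and 0.031 across genes, so the numbers were not taken to pair the samples. With the number as a replicate block, 0 genes were called, and the medians were -0.19 for cytosolic, 0.041 for mitochondrial, -0.18 for ER and 0.21 for sensor genes. Hspa1a, Hspa1b and Hspb1 are limited by depth, with at most 15 counts a library.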
